A study of Saccharomyces cerevisiae with 4 samples.

Results

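The subject here is a set of 9 yeast genes for protein folding in the endoplasmic reticulum (ER) and for the unfolded protein response (UPR), chosen by name from 5441 open reading frames (ORFs) whose ribosome footprints were counted. They are the chaperone genes KAR2, LHS1, SCJ1 and JEM1, the disulfide bond genes PDI1, EUG1 and ERO1, and the signalling genes IRE1 and HAC1, and all 9 were found and passed the filter on low counts. Footprints are the mRNA fragments that ribosomes shield from nuclease, so a count holds mRNA level and translation together. The samples were 4 cultures of Saccharomyces cerevisiae Y7092, a haploid laboratory strain built for systematic crosses, with 1 library for each combination of strain and plasmid. A wild-type culture and a vps35::natMX culture, in which the gene for the core retromer subunit is replaced by a drug-resistance marker, carried pAG416GAL-ccdB as the control plasmid. The other wild-type culture and the other vps35::natMX culture carried pAG416GAL-TIF4631, which places the gene for the initiation factor eIF4G1 under a galactose-inducible promoter. All were grown in synthetic defined medium to early log phase, and plasmid genes were induced for 2 h. The series asks whether the 2 genes, counterparts of human VPS35 and EIF4G1, act together.

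Proteins that enter the secretory pathway fold in the ER with the help of the Hsp70 chaperone Kar2 and of thiol enzymes that form and reshuffle disulfide bonds. When unfolded proteins accumulate, the membrane sensor Ire1 cuts an unusual intron out of HAC1 mRNA in the cytoplasm, the tRNA ligase joins the exons, and the Hac1 transcription factor then raises KAR2, PDI1, EUG1, ERO1, LHS1, SCJ1 and many other genes. Uncut HAC1 mRNA is translated poorly, because its intron pairs with the leader of the message. KAR2 and PDI1 are widely read as reporters of this response.

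The HAC1 splice boundaries are shown because the value measured for HAC1 depends on what a read there can tell. In the R64 assembly, which is sacCer3, HAC1 (YFL031W) lies on chromosome VI from 75179 to 76147 on the plus strand, with 2 coding exons and an intron of 252 bases from 75840 to 76091. In the first pair of lines capitals mark exon and lower case marks intron. In the third, the exons are joined as after cutting by Ire1, and capitals mark exon 2.
HAC1 exon 1 into intron, chrVI:75810-75869: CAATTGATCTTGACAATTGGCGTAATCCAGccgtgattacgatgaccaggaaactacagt
HAC1 intron into exon 2, chrVI:76062-76121: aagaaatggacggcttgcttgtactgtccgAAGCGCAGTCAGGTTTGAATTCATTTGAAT
HAC1 joined exons: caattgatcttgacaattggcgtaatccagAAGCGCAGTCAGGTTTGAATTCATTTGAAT
Read in frame, the joined exons encode 238 residues, and the message that keeps its intron meets a stop after 230. The coding length of the joined exons is 717 nt, and dividing count by RPKM gave a length of 702 nt, 15 nt shorter, the same offset as for the other 8 genes. The tables hold 1 count per ORF, so ribosomes on cut and uncut HAC1 mRNA cannot be told apart.

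The promoters of the UPR targets bear on how the set could move together, so the 300 bases before each start codon were searched on both strands for CAGCGTG, the core of the UPR element first defined at KAR2, for its relaxed form CAGNGTG, which contains it, and for TACGTG, a second element. CAGCGTG occurred before 2 of the 9 genes and before 1.23% of 6001 coding genes. TACGTG occurred before 2 of the 9 and before 8.22% of all. CAGNGTG added no gene of the 9 to the 2 with its strict form and was found before 5.67% of all. Each line below runs 5′ to 3′ along the gene's own strand with the motif in capitals, and in LHS1 and EUG1 the capitals are the reverse complement of the motif named.
KAR2, CAGCGTG, first base 160 bases before the start, chrX:381147-381193: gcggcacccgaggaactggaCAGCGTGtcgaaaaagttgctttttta
LHS1, CAGCGTG on the other strand, 99 bases before the start, chrXI:296311-296357: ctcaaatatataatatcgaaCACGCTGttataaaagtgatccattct
ERO1, TACGTG, 139 bases before the start, chrXIII:13288-13333 (minus strand): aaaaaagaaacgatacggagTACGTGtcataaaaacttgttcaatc
EUG1, TACGTG on the other strand, 174 bases before the start, chrIV:1478414-1478459: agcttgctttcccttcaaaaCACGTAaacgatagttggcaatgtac
No match in this window says only that these letters are absent from it.

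Summed counts per library ran from 11240681 to 18067205, the lowest in the vps35 deletion control, and scaling factors by the TMM method lay between 0.971 and 1.02. VPS35 itself had 2187 and 1974 counts in the wild-type libraries and 9 and 10 in the deletion libraries. TIF4631 stood at 454.7 CPM, the count scaled to a library of a fixed size, in the wild-type control, 403 in the library labelled wild-type TIF4631, 435 in the deletion control and 6216 in the deletion library with TIF4631. TIF4631 was thus not raised in the second library, against its label, and directions drawn from it describe the library labelled wild-type TIF4631. URA3, the plasmid's selectable marker, was at 855, 884.3, 731.7 and 117.9 CPM in the same order, so the deletion library with TIF4631 also stood apart in its marker, whose part in the results below was not tested. CPM values use the scaled library sizes. Each group has a single library and thus no replicate error, so the intervals given are 95% counting intervals only, and a ratio between 2 libraries has no test.

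Together the 9 genes took 0.315% of all counts in the wild-type control, 0.285% in the library labelled wild-type TIF4631, 0.343% in the deletion control and 0.273% in the deletion library with TIF4631. KAR2 and PDI1 supplied 83.9% to 86.0% of these. Per length, in the RPKM that the authors deposited, KAR2 at 543.1 to 767.7 and PDI1 at 730.2 to 892.9 stood above at least 93% of all ORFs in each library. The middle of the set was ERO1 at 53.6 to 64.2, SCJ1 at 47.6 to 68.2, EUG1 at 50.2 to 56.1 and LHS1 at 40.8 to 47.3 RPKM. HAC1 at 19.9 to 30.2, JEM1 at 13.8 to 19.3 and IRE1 at 9.95 to 11.2 RPKM were the lowest, and IRE1 was the lowest in every library.

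**Figure D1:**
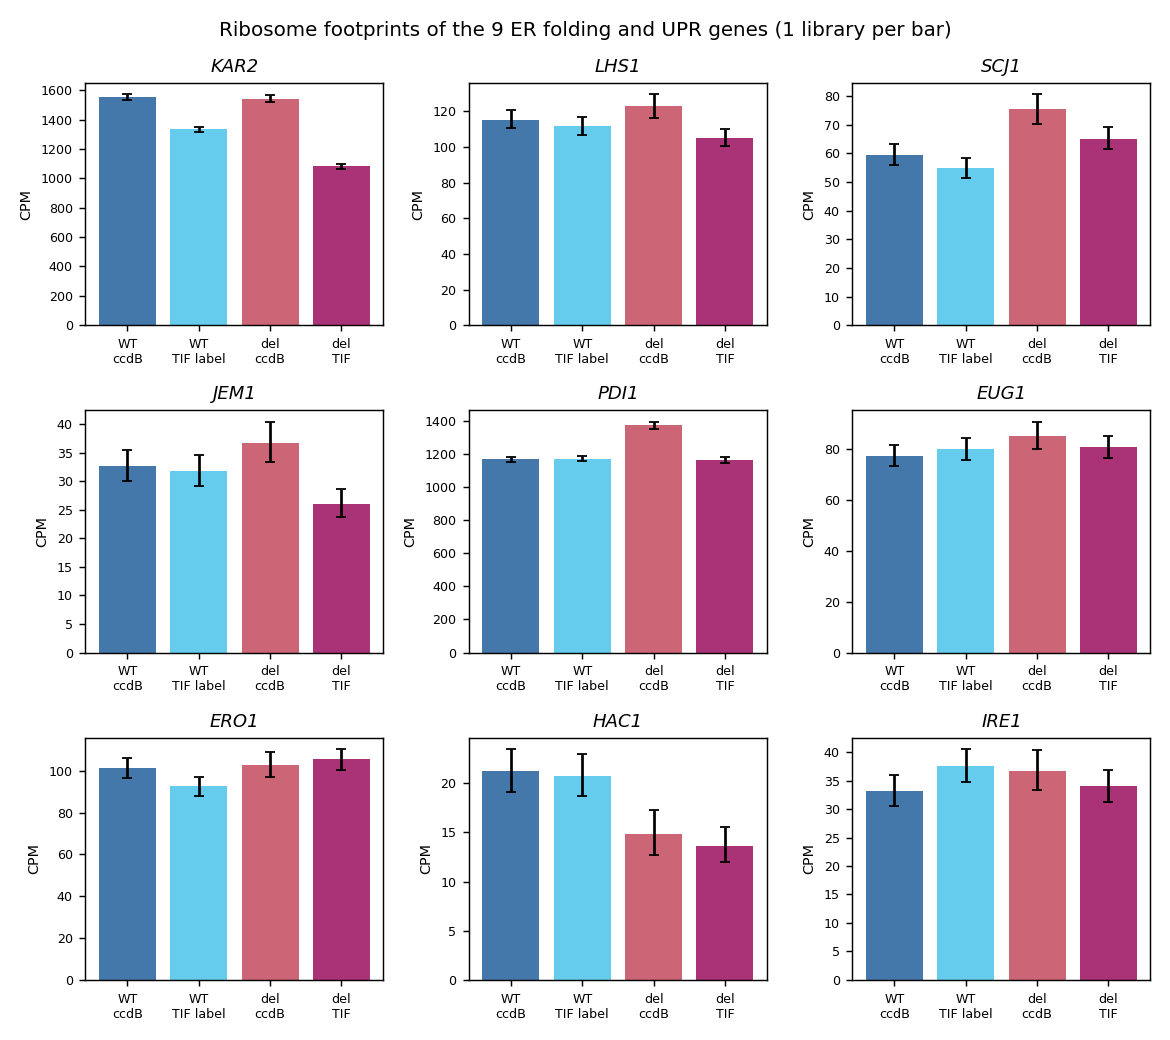
Footprint level of each gene in the 4 libraries, in CPM on axes that start at 0, with 1 library per bar and 95% Poisson counting intervals as error bars. WT is wild type, del is vps35 deletion, ccdB is the control plasmid, and TIF label and TIF are the libraries labelled with TIF4631. HAC1 is lower in both deletion libraries, at 14.9 and 13.7 CPM, than in both wild-type libraries, at 21.2 and 20.8 CPM.

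HAC1, the transcription factor gene of the pathway, had the largest ratio of the set in both comparisons of vps35 deletion with wild type. It had 374 counts in the wild-type control, 364 in the library labelled wild-type TIF4631, 169 in the deletion control and 228 in the deletion library with TIF4631, which is 21.2, 20.8, 14.9 and 13.7 CPM. Both deletion libraries lay below both wild-type libraries, and within each strain the pair of libraries did not differ beyond counting error. In footprints of a bulk culture, fewer cells with a message, less of it per cell and less translation of it cannot be told apart. The log2 ratio of deletion to wild type was -0.51 (interval -0.79 to -0.25) under the control plasmid and -0.60 (-0.85 to -0.36) under the TIF4631 label. Of the 4997 ORFs past the filter, 1.7% had a ratio that low or lower in the first comparison and 7.4% in the second. These pairs share no library, but in the second the deletion library also held raised TIF4631, so strain and TIF4631 cannot be told apart there.

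HAC1 did not pass the only test across samples, an additive model of strain and plasmid label fitted to all ORFs. There its strain term was -0.56 on the log2 scale (SE 0.194), with an unadjusted p = 0.0186 by edgeR's quasi-likelihood test and an adjusted p = 0.479. The fit has 1 residual degree of freedom per ORF, and the test moderates each variance with those of all ORFs. Over 8 other settings the adjusted p ran from 0.328 to 1. What sets the deletion library with TIF4631 apart enters both terms of this model. TIF4631 itself, raised only there, had a strain term of 1.94 and a plasmid term of 1.83. Relative to IRE1 in the same library, which needs no scaling between libraries, HAC1 per length was 3.03-fold higher (2.65 to 3.46) in the wild-type control and 2.62-fold (2.30 to 2.99) in the library labelled wild-type TIF4631. The same ratio was 1.92 (1.6 to 2.30) in the deletion control and 1.91 (1.63 to 2.23) in the deletion library with TIF4631. For this ratio the intervals of the strains touched only at 2.30. Relative to KAR2 the intervals did not keep the strains apart. That ratio was 0.0396 (0.0357 to 0.0439) in the wild-type control and 0.0451 in the library labelled wild-type TIF4631. It was 0.0279 (0.0238 to 0.0325) in the deletion control. In the deletion library with TIF4631, where KAR2 was lowest, it was 0.0366 (0.032 to 0.0417), which overlaps the wild-type control.

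IRE1 (YHR079C, chromosome VIII, 258244 to 261591, minus strand), the sensor kinase and RNase that cuts HAC1 mRNA, was nearly level. It stood at 33.3 CPM with the control plasmid in wild type, 37.6 in the library labelled wild-type TIF4631, 36.8 in the deletion control and 34.0 in the deletion library with TIF4631. No neighbours in that order differed beyond counting error, and the highest exceeded the lowest 1.13-fold, a log2 difference of 0.18 (0.01 to 0.34). Of the genes that act with IRE1, the RNA ligase gene TRL1, which joins the HAC1 exons, had log2 ratios of deletion to wild type of -0.07 (-0.21 to 0.06) under the control plasmid and -0.15 (-0.28 to -0.01) under the TIF4631 label. PTC2, a phosphatase that dampens Ire1, stood at 0.09 (0.00 to 0.17) and -0.45 (-0.53 to -0.36).

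KAR2 (YJL034W, chromosome X, 381327 to 383375, plus strand), the ER Hsp70 and the most abundant chaperone of the set, did not follow HAC1 under the control plasmid. It stood at 1553 CPM with the control plasmid in wild type, 1333 in the library labelled wild-type TIF4631, 1543 in the deletion control and 1082 in the deletion library with TIF4631. The control-plasmid libraries of the 2 strains did not differ beyond counting error, with a log2 ratio of -0.01 (-0.04 to 0.02). Under the TIF4631 label the log2 ratio of deletion to wild type was -0.30 (-0.33 to -0.27), in the same direction as that of HAC1. Both libraries with the TIF4631 label were lower than their control. The log2 ratio to the control was -0.51 (-0.54 to -0.48) in the deletion strain and -0.22 (-0.25 to -0.20) in wild type, the latter from a library with no excess of TIF4631. Ratios as low or lower were held by 7.5% and 12.7% of ORFs. In the additive model the plasmid term of KAR2 was -0.37 (SE 0.204), with an edgeR adjusted p = 0.998.

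The partners of Kar2 differed among themselves. LHS1 (YKL073W), an Hsp70-related nucleotide exchange factor for Kar2, was at 115.4, 111.8, 122.9 and 105.2 CPM in the wild-type control, the library labelled wild-type TIF4631, the deletion control and the deletion library with TIF4631. No neighbours in the order of these levels differed beyond counting error, and the highest exceeded the lowest 1.17-fold. JEM1 (YJL073W), a J-domain cochaperone needed for nuclear fusion in mating, was at 32.7, 31.8, 36.8 and 26.1 CPM in the same order of libraries. Only the deletion library with TIF4631 stood apart from its neighbour in the order, by 0.29 on the log2 scale (0.10 to 0.47) below the library labelled wild-type TIF4631. Its log2 ratio to the highest level, in the deletion control, was -0.50 (-0.69 to -0.30), close in size to that of KAR2. Per length, JEM1 was 0.0223 to 0.0255 of KAR2 in the 4 libraries, with overlapping counting intervals.

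SCJ1 (YMR214W), the other lumenal J-domain cochaperone, was higher in both deletion libraries. It stood at 59.6 CPM with the control plasmid in wild type, 54.9 in the library labelled wild-type TIF4631, 75.4 in the deletion control and 65.2 in the deletion library with TIF4631. The lower of the deletion libraries exceeded the higher of the wild-type libraries by 0.13 on the log2 scale (0.01 to 0.25), barely beyond counting error. The log2 ratio of deletion to wild type was 0.34 (0.21 to 0.47) under the control plasmid, at percentile 96.1 of all ORFs, and 0.25 (0.12 to 0.37) under the TIF4631 label, at percentile 76.9. The strain term was 0.29 (SE 0.144), with an unadjusted p = 0.0732 and an adjusted p = 0.803 by edgeR. Per length SCJ1 was 0.0697 of KAR2 (0.0655 to 0.0742) in the wild-type control and 0.0749 (0.0701 to 0.0798) in the library labelled wild-type TIF4631. The share was 0.0888 (0.0829 to 0.0952) in the deletion control and 0.110 (0.103 to 0.116) in the deletion library with TIF4631, where KAR2 was lowest.

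Among the disulfide genes, PDI1 (YCL043C, chromosome III, 48653 to 50221, minus strand), the main oxidoreductase and isomerase, was highest in the deletion control. It stood at 1167 CPM with the control plasmid in wild type, 1169 in the library labelled wild-type TIF4631, 1371 in the deletion control and 1161 in the deletion library with TIF4631. By TMM scaling the 3 others did not differ among themselves beyond counting error. By total counts the log2 ratio of the library labelled wild-type TIF4631 to its control was -0.04 (-0.06 to -0.01). The log2 ratio of deletion to wild type was 0.23 (0.20 to 0.26) under the control plasmid and -0.01 (-0.04 to 0.02) under the TIF4631 label. KAR2 per length was 1.02 of PDI1 (0.999 to 1.04) in the wild-type control, 0.871 (0.855 to 0.888) in the library labelled wild-type TIF4631, 0.860 (0.841 to 0.879) in the deletion control and 0.712 (0.698 to 0.727) in the deletion library with TIF4631. The 2 most abundant genes of the set thus did not keep a fixed ratio across the libraries.

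EUG1 (YDR518W), a nonessential relative of PDI1, was at 77.5, 80.1, 85.4 and 81.0 CPM in the wild-type control, the library labelled wild-type TIF4631, the deletion control and the deletion library with TIF4631. No neighbours in its order differed beyond counting error, and PDI1 per length was 14.2 to 15.9 times EUG1. ERO1 (YML130C), the oxidase that recharges Pdi1, was at 101.4, 92.5, 102.9 and 105.4 CPM in the same order of libraries. Only the library labelled wild-type TIF4631 lay below its neighbour, by a log2 difference of 0.13 (0.03 to 0.23), and ERO1 was the 1 gene of the set whose highest level was in the deletion library with TIF4631.

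**Figure D2:**
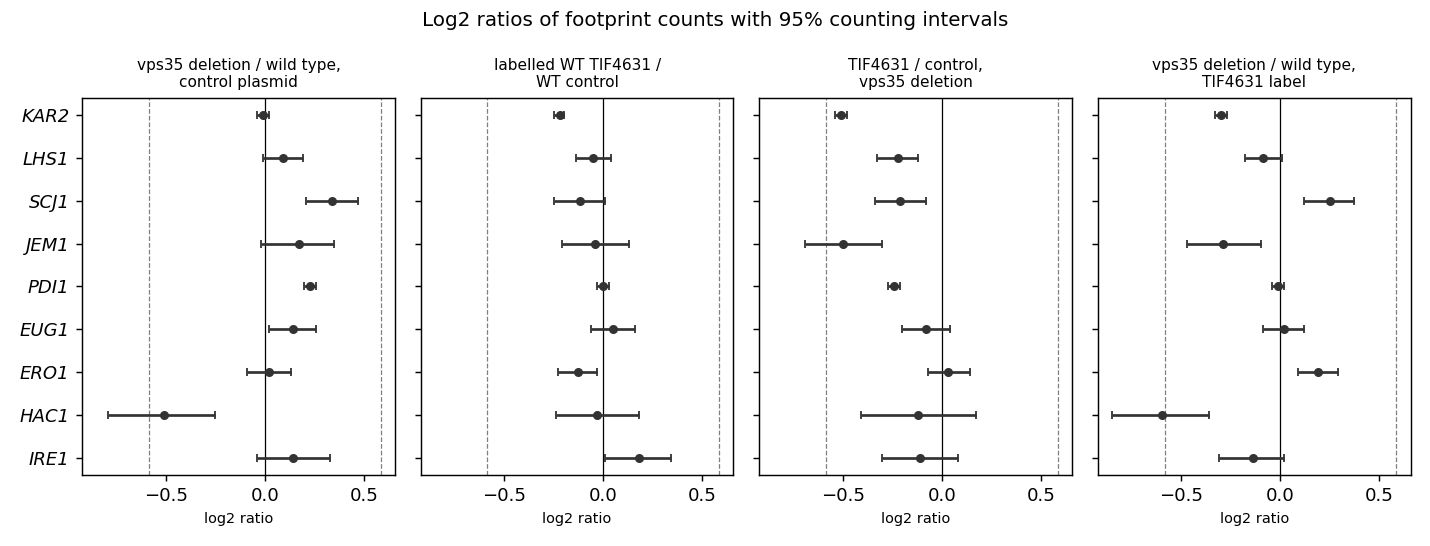
Log2 ratio of footprint counts for each gene in the 4 comparisons of libraries, with 95% counting intervals as bars and dashed lines at a 1.5-fold difference in either direction. HAC1 lies at -0.51 and -0.60 in the comparisons of vps35 deletion with wild type, and KAR2 and JEM1 lie at -0.51 and -0.50 for TIF4631 in the deletion strain.

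Counted over the set, few genes reached a 1.5-fold difference with an interval that excluded 0, the size used to call an ORF. For vps35 deletion under the control plasmid 0 of 9 did, where 2.46% of the 4997 ORFs did. Beyond counting error at any size, PDI1, SCJ1 and EUG1 were higher and HAC1 was lower, 3 and 1 of 9, against 17.2% of all ORFs higher and 17.3% lower. The median log2 ratio of the set was 0.14 against 0.00 for all ORFs. KAR2 and PDI1 have counts so high that small ratios exceed counting error, so counts of this second kind lean on depth. Here that concerns PDI1, because KAR2 lay within counting error.

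For the TIF4631 label in wild type 0 of 9 were called, against 2.3% of ORFs. IRE1 was higher and KAR2 and ERO1 were lower beyond counting error, 1 and 2 of 9, against 24% and 23.6% of all ORFs, and the median was -0.04. For TIF4631 in vps35 deletion 0 of 9 were called, against 8.55% of ORFs. KAR2, JEM1, PDI1, LHS1 and SCJ1, which is 5 of 9, were lower beyond counting error against 31.3% of all ORFs, none was higher against 30.1%, and the median was -0.21 against 0.01 for all ORFs. This comparison and that of the strains under the control plasmid share the deletion control library, in which all 5 except KAR2 had their highest level.

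For vps35 deletion under the TIF4631 label 1 of 9 was called, HAC1, against 14.3% of ORFs in either direction, and it was lower, as were 7.88%. SCJ1 and ERO1 were higher and HAC1, KAR2 and JEM1 lower beyond counting error, 2 and 3 of 9, against 33.8% and 35.3% of all ORFs, and the median was -0.09. With a 2-fold size 0 of 9 were called, against 3.98% of ORFs. With scaling by total counts HAC1 stood at -0.53 in this comparison and was no longer called. The same scaling turned the balance of calls over all ORFs there from 319 higher and 394 lower to 415 and 306, and that of the TIF4631 label in wild type from 91 and 24 to 78 and 37. 

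**Figure D3:**
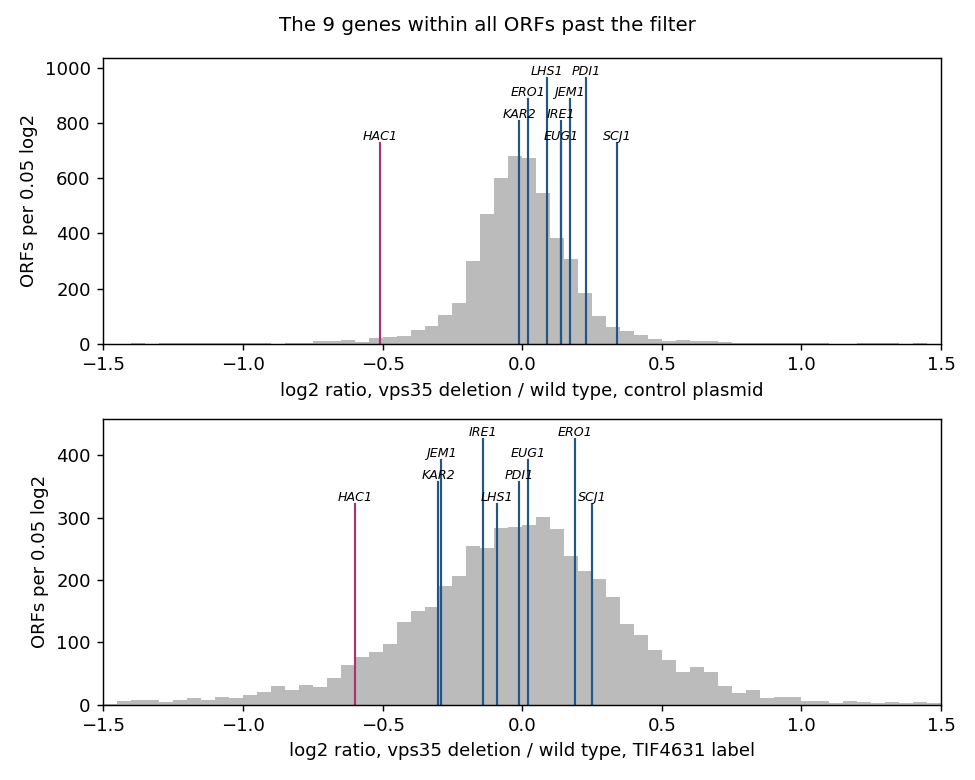
Log2 ratios of vps35 deletion to wild type for all ORFs past the filter, as histograms in bins of 0.05 that show the range from -1.5 to 1.5, with vertical lines at the 9 genes, under the control plasmid (top) and under the TIF4631 label (bottom). HAC1 lies in the lower tail at -0.51 and -0.60, SCJ1 lies above 0 in both at 0.34 and 0.25, and the lower histogram is wider, with a robust SD of 0.353 against 0.148.

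The difference between the TIF4631 ratios of the strains, deletion minus wild type, was meant to show whether the genes act together, but its wild-type side rests on a library without raised TIF4631. By the 1.5-fold size 0 of 9 were called, against 14.6% of ORFs. Beyond counting error ERO1 was higher and KAR2, JEM1, PDI1, LHS1 and IRE1 were lower, 1 and 5 of 9, against 27.5% and 31.5% of all ORFs. JEM1 had the largest difference at -0.46 (-0.71 to -0.20), then KAR2 at -0.29 (-0.33 to -0.25), while HAC1 stood at -0.09 (-0.44 to 0.26).

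In the additive model edgeR gave 0 of the 9 genes an adjusted p under 0.05 for the strain term, where 0.6% of ORFs had one, and 1 of the 9, HAC1, had an unadjusted p under 0.05, against 6.94% of ORFs. For the TIF4631 label 0 of the 9 passed, as did 0% of all ORFs, and 0 of the 9 had an unadjusted p under 0.05, against 3.34% of ORFs. By DESeq2 and limma 0 of the 9 passed for either factor. The model counts any interaction as residual spread and splits what is found in a single library between both terms. A p above the threshold does not show that a gene was unaffected.

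The wider ER machinery was described through 7 lists with 92 ORFs, all listed in the tables and past the filter. For vps35 deletion under the control plasmid 0 of 92 were called, against 2.46% of all ORFs, and the median was 0.03. Beyond counting error 23 were higher and 11 lower, against 17.2% and 17.3% of all ORFs. Other ER chaperones and thiol enzymes had a median of 0.06 over 11 ORFs, with the thiol oxidase ERV2 at 0.27 (0.09 to 0.45) and the J-domain protein ERJ5 at 0.22 (0.10 to 0.35). ER-associated degradation, which returns misfolded proteins to the cytosol, had a median of 0.00 over 15 ORFs, with NPL4 and UFD1, partners of the Cdc48 ATPase, both at 0.21. The translocation list, led by the Sec61 channel and the signal recognition particle, stood at -0.02 over 20 ORFs.

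For TIF4631 in vps35 deletion 5 of the 92 were called, all lower, against 8.55% of all ORFs called in either direction, and the median was -0.15. Beyond counting error 50 were lower and 13 higher, against 31.3% and 30.1% of all ORFs, the shares to hold against each list in this comparison. The 6 genes of O-mannosylation, which attaches mannose to secretory proteins in the ER, were all lower beyond counting error with a median of -0.41. The transferase genes PMT1 and PMT2 stood at -0.65 (-0.70 to -0.60) and -0.61 (-0.66 to -0.56). PMT1 had 580.8 CPM in the wild-type control, 519.4 in the library labelled wild-type TIF4631, 565.4 in the deletion control and 359.9 in the deletion library with TIF4631, so the last library alone was far below the rest. Of the 25 genes of N-glycosylation, 18 were lower and 2 higher beyond counting error, with a median of -0.26. ALG7, which starts the lipid-linked glycan, stood at -0.65 (-0.79 to -0.52) and ALG1, which adds its first mannose, at -0.61 (-0.74 to -0.47).

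Of the 13 genes of ER export, 9 were lower and 3 higher beyond counting error for TIF4631 in vps35 deletion, with the vesicle protein gene ERV46 at -0.73 (-0.82 to -0.64). The channel gene SEC61 stood at -0.43 and the translocon subunit gene SEC62 at -0.41, in a list with a median of -0.05. Of the 20 genes of that list 7 were lower and 3 higher beyond counting error. Other ER chaperones and thiol enzymes had a median of -0.12, with ERV2 at -0.49 and the prolyl isomerase FPR2 at -0.35. Among these 11 genes 6 were lower and 3 higher beyond counting error. ER-associated degradation stood at -0.07, with CUE1, which anchors a ubiquitin-conjugating enzyme at the ER, at -0.47 and CDC48 at -0.30. Only 2 of its 15 genes were lower and 2 higher beyond counting error, both below the shares over all ORFs. In the same comparison cytosolic heat shock chaperones had a median of 0.06 over 14 measured ORFs of 17 listed, with 8 higher and 5 lower beyond counting error and the small heat shock protein gene HSP26 at 1.06 (1.02 to 1.10). HSP26 also stood at 0.65 (0.62 to 0.68) for the TIF4631 label in wild type, a library without raised TIF4631. For vps35 deletion under the control plasmid it was at -0.61 (-0.65 to -0.56), so the ratio of 1.06 starts from a low level.

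For the TIF4631 label in wild type 0 of the 92 ER genes were called, against 2.3% of all ORFs, with a median of -0.07. Beyond counting error 36 were lower and 5 higher, against 23.6% and 24% of all ORFs. N-glycosylation genes stood at -0.12 and O-mannosylation genes at -0.13, with PMT2 at -0.20 and PMT1 at -0.16, and SEC61 had -0.28 (-0.33 to -0.23). Among the 5 that were higher were ALG13 at 0.29 (0.05 to 0.53), CDC48 at 0.21 (0.18 to 0.23), and ERV2 and PTC2, both at 0.18. Under the TIF4631 label, vps35 deletion against wild type gave 1 call of 92, CUE1 at -0.67 (-0.80 to -0.54), against 14.3% of all ORFs, and a median of -0.04. Beyond counting error 40 were lower and 22 higher, against 35.3% and 33.8% of all ORFs. The higher ones included ERV29 at 0.36 (0.29 to 0.42) and SRP68 at 0.28 (0.20 to 0.35), neither of them called. In the additive model 0 of the 92 passed for either factor by edgeR, and 0 and 3 had an unadjusted p under 0.05 for vps35 deletion and the TIF4631 label, against 6.94% and 3.34% of all ORFs.

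**Figure D4:**
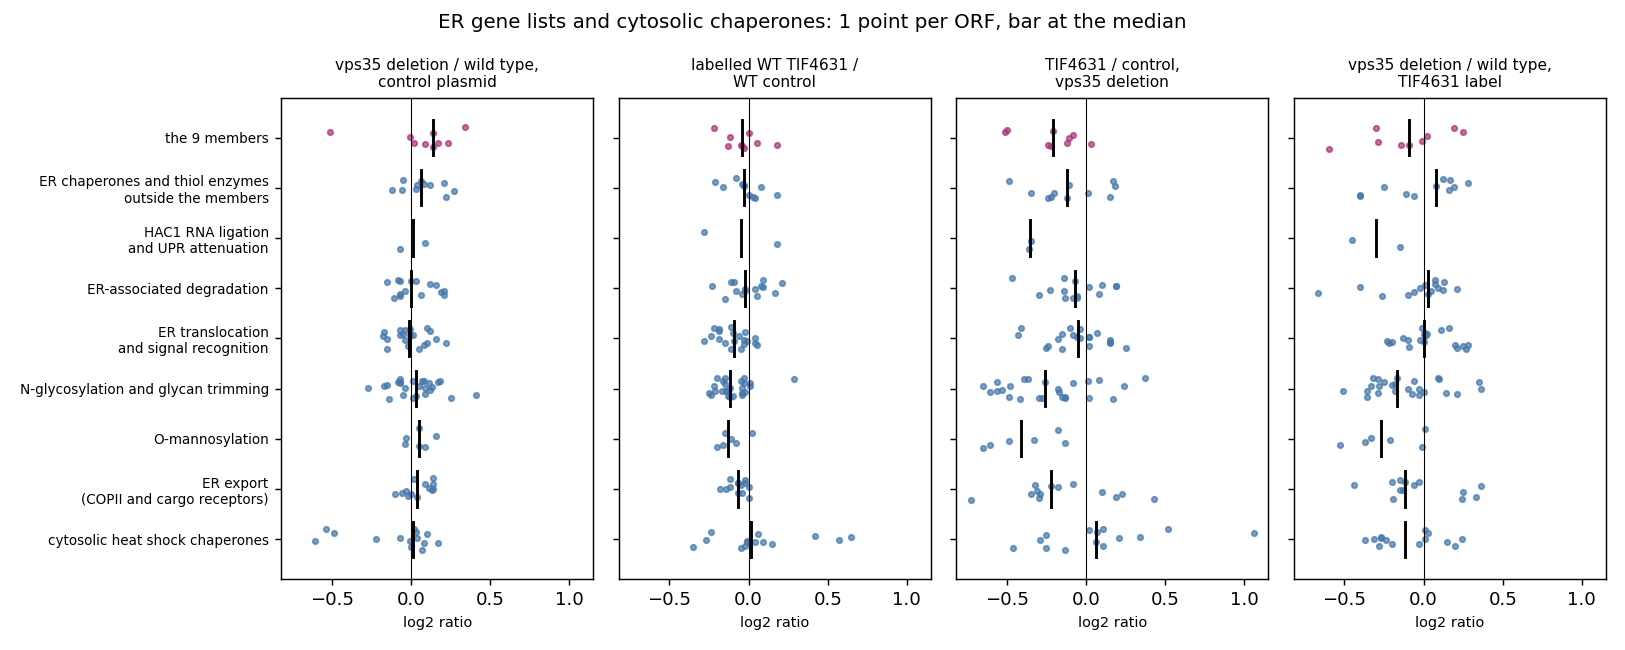
Log2 ratio of each ORF in the 9 genes (red), in 7 further ER lists and in cytosolic heat shock chaperones (blue) for the 4 comparisons, with a black bar at each list's median and points spread vertically only for legibility. For TIF4631 in vps35 deletion the medians of O-mannosylation, N-glycosylation and the 9 genes lie at -0.41, -0.26 and -0.21, and that of cytosolic chaperones at 0.06.

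The genes nearest in pattern to KAR2 and HAC1 were found among 4371 ORFs with at least 1000 summed counts, by the Euclidean distance between centred log2 CPM over the 4 libraries. For KAR2 they were IMG1, IKI3, PET127, ALG3 and BOL3, at distances of 0.0238 to 0.0469. ALG3, a mannosyltransferase of N-glycosylation, stood at 43.0, 38.4, 43.3 and 30.0 CPM in the wild-type control, the library labelled wild-type TIF4631, the deletion control and the deletion library with TIF4631. For HAC1 they were AGC1, HUA2, ECM22, USB1 and PHD1, at distances of 0.124 to 0.154. With 4 libraries a pattern rests on few values, and many ORFs lie close to any common one.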

How the data were processed

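Per the labels' protocols, RNase I digestion was followed by a sucrose cushion spin, gel selection of short fragments and subtraction of ribosomal RNA. Per the submitters' processing notes, the tools included Bowtie2, cutadapt 1.3 and CASAVA, with the build sacCer3. How reads were counted, and how those with several matches were handled, is not given in the sources used here. The deposited counts are whole reads per ORF, and the deposited RPKM was scaled by the authors to ORF length and dataset reads, per the file headers. RPKM served only to compare genes per length.

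Names came from the R64 RefSeq table, which matched 5438 of 5441 ORFs, and sequences from that assembly. None of the 9 genes overlaps another gene of that annotation. ORFs with at least 200 summed counts were kept (4997). Scaling used TMM of edgeR 4.0.16 in R 4.3.3. Log2 ratios used 0.5 added counts and Clopper-Pearson intervals at 95%. The interval of a difference of ratios was normal on log counts. The additive model used the quasi-likelihood test of edgeR, adjusted by Benjamini-Hochberg over all kept ORFs. As a summary of spread, the common dispersion was estimated at 0.0245. The SE of a model term is the log2 change divided by the root of F. DESeq2 1.42.0 and limma 3.58.1 gave alternatives, and the fit was tested on simulated data. CPM intervals are exact Poisson intervals. Reads carried no molecular identifiers and can be PCR copies, so intervals cover counting error only. 

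The members, lists, motifs and settings were chosen with earlier results of these data known. Named genes are the 9, TIF4631, VPS35 and URA3, the genes nearest in pattern, and genes from the lists. From each list the candidates were those past 1.5-fold (at most 5 per comparison) or else the 2 with the largest ratio. Only some of these candidates are given for each comparison. URA3 was added after its values were seen.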

Additional observations from a re-analysis of the deposited data

Results flagged for a closer look

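For 6 of the 9 genes an effect had opposite signs in the 2 arms of the design, with 1 library per group, and the difference itself was not tested over samples. Of all 4997 ORFs past the filter 65.9% had such opposite signs in at least 1 of these pairs, so 6 of 9 is near the share over all ORFs. Between the deletion ratios under the control plasmid and under the TIF4631 label, JEM1 went from 0.17 to -0.29, a difference of -0.46 (counting interval -0.71 to -0.20). By the same measure IRE1 went from 0.14 to -0.14, a difference of -0.29 (-0.53 to -0.04), PDI1 from 0.23 to -0.01, a difference of -0.24 (-0.28 to -0.20), and LHS1 from 0.09 to -0.09, a difference of -0.18 (-0.31 to -0.04). Between the TIF4631 ratios of wild type and of the deletion strain, IRE1 went from 0.18 to -0.11, the same difference of -0.29, EUG1 from 0.05 to -0.08, a difference of -0.12 (-0.28 to 0.04), and ERO1 from -0.13 to 0.03, a difference of 0.17 (0.02 to 0.31). Each of these pairs has at least 1 ratio within counting error of 0, and all the differences use the library labelled wild-type TIF4631. Under total counts PDI1 stood at 0.25 and 0.06, and without the 50 most abundant ORFs at 0.24 and 0.01, so its signs were then no longer opposite. KAR2 took opposite signs under total counts, at 0.01 and -0.23, so 6 of the 9 genes still had them. Without the 50 most abundant ORFs 5 of the 9 did.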

How the results depend on the processing

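Scaling by total counts, or the 2-fold size, left 0 of the 9 genes called for vps35 deletion under the TIF4631 label, where HAC1 was the 1 call. In the additive model 0 of 135 member values under alternatives passed the threshold. Of 225 member log2 ratios under alternatives 219 stayed inside the counting interval of the reported value, and the 6 outside it were those of KAR2 and PDI1 under total counts. Which genes lay beyond counting error also changed under total counts. For the TIF4631 label in wild type, SCJ1 at -0.16 (-0.28 to -0.03) and PDI1 at -0.04 (-0.06 to -0.01) joined. IRE1 at 0.14 (-0.03 to 0.30) left. For vps35 deletion, PDI1 at 0.06 (0.03 to 0.09) joined under the TIF4631 label. LHS1 at 0.11 (0.01 to 0.21) joined under the control plasmid. For the difference of the TIF4631 ratios, LHS1 and IRE1 left. Over all ORFs, calls for vps35 deletion under the control plasmid went from 123 of 4997 to 72 of 4371 with a filter of 1000 counts. A change of filter also changes how many ORFs are compared, here and in the additive model below. With the 2-fold size, calls in the 5 comparisons were 40, 28, 81, 199 and 168, against 123, 115, 427, 713 and 729. For vps35 deletion the additive model called 30 ORFs (10 higher, 20 lower), 94 with no filter (42 and 52), 47 with DESeq2 size factors (19 and 28), 83 with total counts (42 and 41), 52 with total counts without the 50 most abundant ORFs (23 and 29), 66 with DESeq2 (30 and 36) and 18 with strain as the only factor (2 and 16), an alternative chosen after seeing the data. For the TIF4631 label it called 0, with 167 at an unadjusted p under 0.05, against 0 by limma, 4 with no filter, 6 with DESeq2 and 2 under each of the other 4 settings. The cause of these moves was not tested. The median of all ORFs moved by at most 0.071 under another scaling. No paired analysis was possible because each group has 1 library, and leaving a library out leaves the model no residual degree of freedom. HAC1, with 169 to 374 counts, is limited most by depth.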
